A study of Mus musculus with 24 samples.

Results

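Uridine diphosphate glucuronosyltransferases (Ugt), cytosolic sulfotransferases (Sult) and soluble glutathione S-transferases (Gst) are the main families of conjugating, or phase II, enzymes of the liver. The genes described here are the 45 of 19938 measured mouse genes whose symbol begins with Ugt1, Ugt2 or Ugt3, with Sult and a digit, or with Gst and a class letter (a, k, m, o, p, t or z), taken from probe sets that carried exactly 1 symbol. They comprise 10 Ugt, 16 Sult and 19 Gst genes, and the rule for them uses names and no values, although it was set with earlier results of these data known. Liver RNA was measured on Affymetrix MoGene 1.0 ST arrays in wild-type male C57Bl/6 mice of 4 groups with 6 arrays each: fish oil germ-free, lard germ-free, fish oil conventional and lard conventional. Every group received a diet with 45% of its energy from fat, either menhaden fish oil or lard, for 11 weeks and was fasted for 4 hours before the liver was taken. Germ-free mice were raised without microbes and conventional mice were not. Per the study's design text feeding began at an age of 11 weeks. Litters, cages and array batches were not given.

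Ugt enzymes sit in the endoplasmic reticulum and attach glucuronic acid to bilirubin, steroids, bile acids, drugs and phenols. Sult enzymes attach a sulfonate group taken from the donor PAPS to steroids, phenols, catecholamines and bile acids. Gst enzymes attach glutathione to reactive electrophiles, including products of lipid peroxidation. In the mouse liver many members of the families are expressed differently in males and females, and gut microbes carry glucuronidases and sulfatases that split the conjugates excreted in bile.

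All levels are log2 signals, so a difference of 1 is a 2-fold difference, and signals of different probe sets are not read as relative amounts of RNA. The probe set with the highest mean signal of a family only marks a gene to describe. Fish oil germ-free mice 3 and 4 differed from each other by less than any other of the 60 pairs of mice within a group (SD of the difference over the 300 most variable probe sets 0.124, against 0.356 for the next pair), so they were averaged and entered once. Whether these arrays hold the RNA of 1 liver cannot be told from the labels, which list separate mice. Fish oil germ-free therefore has n = 5, and the remaining groups have n = 6 each. The summed signal of 6 hepatocyte markers lay between 16.36 and 16.49 in all samples, with 0 of 6 passing in any comparison (adjusted p under 0.05 in limma over all 19938 genes, the rule for every call below). These markers were bright in every group, but Alb, at 14.02 to 14.31, was close to the top of the scale (the brightest probe set of an array reached 14.29 or more), so a narrow range there does not show equal levels. Array medians lay between 6.445 and 6.623. In whole liver, fewer cells of a type and less RNA per cell cannot be told apart. Of the 45 genes, 7 Sult genes (Sult1c1, Sult2a3, Sult2a6, Sult3a1, Sult3a2, Sult6b1 and Sult6b2) lay below the 25th percentile of the array in every sample, so 38 genes are treated as measured. Probe sets shared by several family members, which include Ugt1a, Gsta1 with Gsta2 and Gstp1 with Gstp2, carry 12 further family signals that do not belong to the 45.

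Fish oil was set against lard to ask how the type of dietary fat acts on these genes with and without microbes, and germ-free was set against conventional to ask the same of microbes on each fat. In germ-free mice 8 of the 45 genes (17.8%) differed between fish oil and lard, beside 13.2% of all genes tested. Of the 8, 5 were higher (4.58% of all genes were) and 3 lower (8.59% of all genes). In conventional mice 0 of 45 passed, beside 0.808% of all genes (0.206% higher and 0.602% lower), while 11 of the 45 and 3301 of all genes had an unadjusted p under 0.05 in limma. Between germ-free and conventional mice on fish oil 5 of 45 (11.1%) were higher and 0 were lower, beside 6.91% of all genes (3.01% higher and 3.89% lower). On lard 1 of 45 was higher and 2 were lower (6.67% together), beside 1.82% of all genes (1.13% higher and 0.687% lower). The comparison of the diet effect in germ-free with that in conventional mice gave 0 of 45, beside 0.607% of all genes (0.216% higher and 0.391% lower), and 5 of the 45 and 2426 of all genes had an unadjusted p under 0.05. The share of the 45 that passed was thus near the share of all genes for the diet in germ-free mice, and the account below rests on single genes. In all, 13 of the 45 passed in at least 1 comparison.

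**Figure D1:**
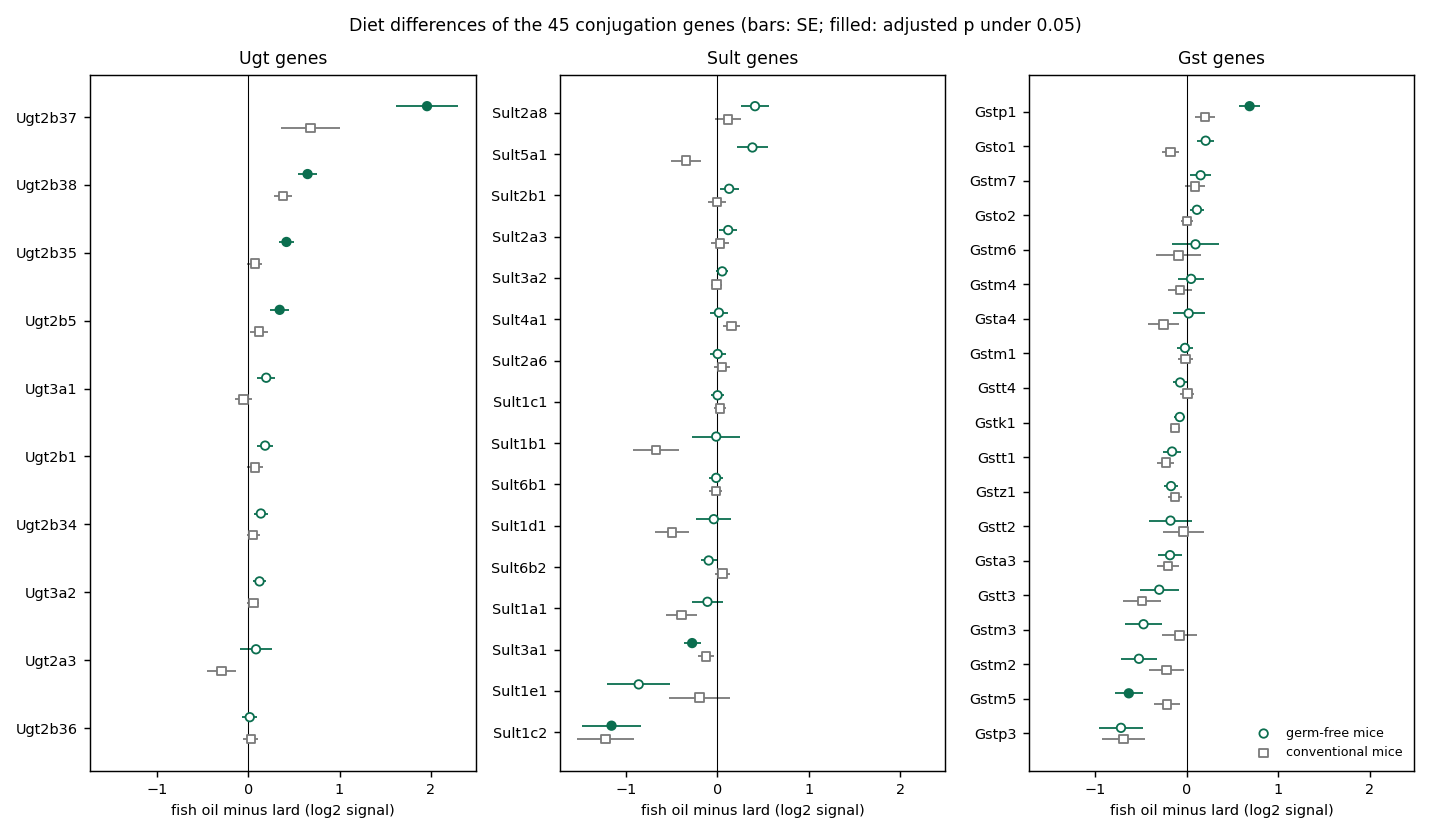
Difference between fish oil and lard on the log2 scale for each of the 45 genes, by family, in germ-free mice (circles) and conventional mice (squares); bars are the SE of the limma fit, and filled symbols passed at an adjusted p under 0.05. All 10 Ugt genes lie right of 0 in germ-free mice, led by Ugt2b37 at 1.96, whereas Sult and Gst genes lie on both sides.

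The Ugt family carried most of the genes that rose on fish oil in germ-free mice. Of its 10 members 4 rose (40%, beside 4.58% of all genes), namely Ugt2b37, Ugt2b38, Ugt2b35 and Ugt2b5. Whether probe sets of these related genes also read each other's RNA could not be checked, so the 4 may not be separate signals. Members that fell numbered 0, beside 8.59% of all genes. The other 6 (Ugt2a3, Ugt2b1, Ugt2b34, Ugt2b36, Ugt3a1 and Ugt3a2) did not pass, with differences between 0.02 and 0.20. The median over the 10 was 0.192, against 0.003 over all genes. The enzymes of the Ugt2b subfamily act on steroids, bile acids and xenobiotics, and those of Ugt3a use sugars other than glucuronic acid.

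Ugt2b37 lay at 9.15, 8.49, 10.48, 8.35 and 9.63 in fish oil germ-free mice, against 6.88 to 7.50 (median 7.34) in lard germ-free mice. Every fish oil mouse stood above every lard mouse, and the fish oil mice also differed widely among themselves (SD 0.87, against 0.24 on lard). The difference was 1.96 ± 0.34 (SE), a 3.88-fold rise (adjusted p = 0.000424). The mice with the highest signal were the averaged mice 3 and 4, whose own arrays read 10.52 and 10.44. Ugt2b38 lay at 10.76, 10.67, 11.04, 10.88 and 10.83 on fish oil, against 9.98 to 10.48 (median 10.14) on lard. It was 1.57-fold higher (0.65 ± 0.10, adjusted p = 0.000139), again without overlap.

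Ugt2b35 lay at 11.36, 11.27, 11.39, 11.45 and 11.14 in fish oil germ-free mice, against 10.71 to 11.05 (median 10.91) in lard germ-free mice. The groups did not overlap and the rise was 1.34-fold (0.42 ± 0.08, adjusted p = 0.00158). Ugt2b5 lay at 12.32, 12.34, 12.46, 12.59 and 12.49 on fish oil, against 11.89 to 12.38 (median 12.07) on lard, with 2 fish oil mice inside the lard range. Its rise of 1.27-fold (0.35 ± 0.11, adjusted p = 0.0299) did not hold when fish oil germ-free mouse 5 or 6 or lard germ-free mouse 2, 4 or 5 was left out (adjusted p between 0.0587 and 0.0858). This call was lost in 10 of 39 alternative settings. Without mice 5 and 6 of both germ-free groups the rise was 0.23 (adjusted p = 0.361). The calls of Ugt2b37, Ugt2b38 and Ugt2b35 held in all 39 alternative settings. Ugt2b36, whose probe set had the highest mean signal of the family, differed by 0.02 ± 0.08 (adjusted p = 0.934).

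**Figure D2:**
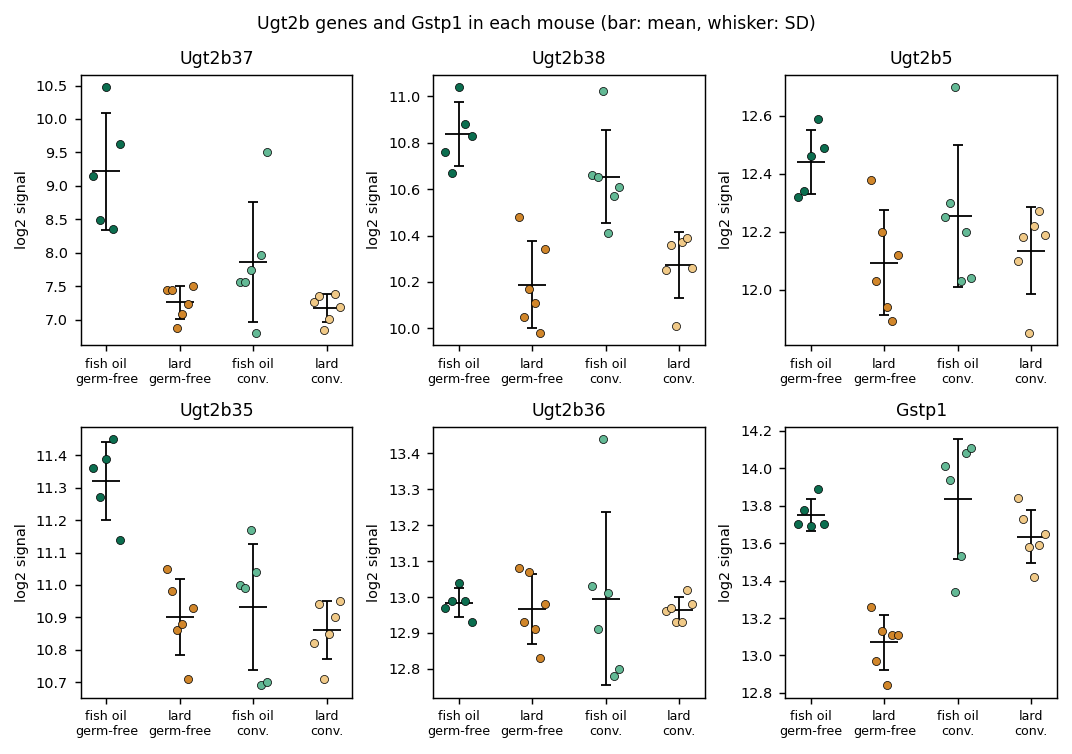
Log2 signal of 5 Ugt2b genes and Gstp1 in each mouse (points), with the group mean (bar) and SD (whisker); each panel has its own axis. Fish oil germ-free mice stand above lard germ-free mice without overlap for Ugt2b37, Ugt2b38, Ugt2b35 and Gstp1, while Ugt2b36 lies between 12.78 and 13.44 in all groups.

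The Ugt2b genes form a cluster on chromosome 5 in the order Ugt2b34, Ugt2b1, Ugt2b35, Ugt2b36, Ugt2b5, Ugt2b37, Ugt2a3 and Ugt2b38, followed by Ugt2a1, Ugt2a2 and the sulfotransferase genes Sult1b1, Sult1d1 and Sult1e1 (RefSeq order). The members that rose therefore did not form an unbroken block, since Ugt2b36 lies between Ugt2b35 and Ugt2b5 and Ugt2a3 between Ugt2b37 and Ugt2b38. The promoters are shown because the members that rose and Ugt2b36, which did not pass, can be set side by side. Each is the RefSeq window of 300 bases on GRCm38.p6, with 250 before and 50 after the start of the gene. The windows are chr5:87254739-87255038 for Ugt2b37, chr5:87424154-87424453 for Ugt2b38, chr5:87140291-87140590 for Ugt2b5 and chr5:87092506-87092805 for Ugt2b36, all on the minus strand, and chr5:87000610-87000909 for Ugt2b35 on the plus strand. In the first 3 sequences capitals mark the longest run of letters that they share, and in the last 2 the letters AGGTCA, a half-site of nuclear receptors.

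Ugt2b37: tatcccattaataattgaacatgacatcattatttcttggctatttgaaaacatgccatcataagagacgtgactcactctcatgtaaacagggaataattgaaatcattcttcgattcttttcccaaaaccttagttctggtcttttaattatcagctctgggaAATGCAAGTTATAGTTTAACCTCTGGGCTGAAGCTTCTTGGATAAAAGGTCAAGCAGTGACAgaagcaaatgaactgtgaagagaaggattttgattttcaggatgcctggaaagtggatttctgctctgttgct

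Ugt2b38: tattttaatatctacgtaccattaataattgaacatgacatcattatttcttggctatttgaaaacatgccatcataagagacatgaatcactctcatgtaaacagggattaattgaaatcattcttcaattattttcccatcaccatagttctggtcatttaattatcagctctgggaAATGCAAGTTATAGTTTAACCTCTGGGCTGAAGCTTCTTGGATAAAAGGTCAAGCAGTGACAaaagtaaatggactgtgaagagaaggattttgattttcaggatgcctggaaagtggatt

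Ugt2b5: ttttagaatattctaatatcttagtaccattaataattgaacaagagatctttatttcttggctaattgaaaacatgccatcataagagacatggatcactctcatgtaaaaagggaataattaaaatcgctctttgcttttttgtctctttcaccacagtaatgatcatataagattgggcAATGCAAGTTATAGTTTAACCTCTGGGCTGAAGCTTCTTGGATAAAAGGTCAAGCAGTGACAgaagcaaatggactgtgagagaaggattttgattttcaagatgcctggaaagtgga

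Ugt2b36: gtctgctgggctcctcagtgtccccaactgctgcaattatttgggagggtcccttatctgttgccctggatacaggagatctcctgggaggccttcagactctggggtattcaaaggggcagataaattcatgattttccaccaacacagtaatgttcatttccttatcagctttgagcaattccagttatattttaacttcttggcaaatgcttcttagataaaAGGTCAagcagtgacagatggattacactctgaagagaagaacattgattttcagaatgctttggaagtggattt

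Ugt2b35: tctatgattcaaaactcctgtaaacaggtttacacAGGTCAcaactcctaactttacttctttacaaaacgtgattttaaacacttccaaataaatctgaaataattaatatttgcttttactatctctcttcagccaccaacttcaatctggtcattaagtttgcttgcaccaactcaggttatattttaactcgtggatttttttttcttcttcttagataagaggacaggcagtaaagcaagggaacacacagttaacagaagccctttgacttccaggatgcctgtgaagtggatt

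The run shared by Ugt2b37, Ugt2b38 and Ugt2b5 was 62 bases long and occurred in the windows of these 3 genes only, out of 27018 genes with a window. It holds the AGGTCA half-site, which begins 39, 25 and 22 bases before the start of Ugt2b37, Ugt2b38 and Ugt2b5. The run was sought in these 3 windows after the values were seen, so its presence in them was fixed in advance. Ugt2b35, which also rose, does not hold the run. Ugt genes that did not pass, other than Ugt2b36, were not aligned. Aligned over the whole window, Ugt2b37 and Ugt2b38 were identical at 91.3% of positions, Ugt2b38 and Ugt2b5 at 87.0% and Ugt2b37 and Ugt2b5 at 82.7%. Ugt2b36 was identical to those 3 at 65.7% to 67.0% of positions, and Ugt2b35 at 59.3% to 61.0%. Searched on both strands, AGGTCA was found in 5 of the 9 Ugt genes with a window (55.6%), against 18.1% of all genes. The 5 are those shown, so the letters stand in Ugt2b36, which differed by 0.02, as in the 4 that rose. Among the other letters searched, GTTAAT (a half-site of HNF1) stood in 5 of 15 Sult genes (33.3%, against 8.2% of all genes) and TGACNNNGC (the core of the antioxidant response element) in 3 of 17 Gst genes (17.6%, against 14.0%). Among those Sult genes were Sult2a3, Sult2a6 and Sult3a2, which lay below the 25th percentile in every sample. GTTAAT stood in 2 of 9 Ugt genes (22.2%) and 1 of 17 Gst genes (5.9%). TGACNNNGC stood in 0 of 9 Ugt and 0 of 15 Sult genes. GCGTG (the core of the xenobiotic response element) stood in 4 of 17 Gst genes (23.5%, against 35.2%) and TTCNNNGAA (STAT5) in 0 of 9 Ugt genes (9.6% of all genes). These matches describe letters and are not measured sites.

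In conventional mice the same Ugt genes gave values that did not pass. Ugt2b38 lay between 10.41 and 11.02 (median 10.63) in fish oil conventional mice, against 10.01 to 10.39 (median 10.31) in lard conventional mice. The groups did not overlap, with a difference of 0.38 ± 0.10 (adjusted p = 0.0555), and the call was made without fish oil conventional mouse 4 (0.43, adjusted p = 0.0153) or without lard germ-free mouse 1 (adjusted p = 0.0493). Ugt2b37 lay between 6.80 and 9.51 (median 7.65) on fish oil, against 6.84 to 7.38 (median 7.23) on lard, a difference of 0.68 ± 0.33 (adjusted p = 0.293). Its highest value came from fish oil conventional mouse 6, and 4 of the other 5 fish oil mice also lay above every lard mouse. Ugt2b35 differed by 0.07 ± 0.08 (adjusted p = 0.679) and Ugt2b5 by 0.12 ± 0.10 (adjusted p = 0.581).

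Set against conventional mice on the same fish oil, germ-free mice had higher Ugt2b37 and Ugt2b35. Ugt2b37, with the germ-free values given above, was 2.57-fold higher than in fish oil conventional mice (1.36 ± 0.34, adjusted p = 0.0152), although the conventional mouse at 9.51 lay inside the germ-free range. Ugt2b35 lay between 11.14 and 11.45 in germ-free mice, against 10.69 to 11.17 (median 11.00) in conventional mice, and rose 1.31-fold (0.39 ± 0.08, adjusted p = 0.00616). Fitted on these 2 groups alone, neither passed (adjusted p = 0.121 for Ugt2b37 and 0.052 for Ugt2b35). For both genes the fish oil germ-free values also enter the diet call, so the calls are not independent of each other. On lard 0 of the 10 Ugt genes passed, with differences between germ-free and conventional mice of -0.19 to 0.09. The test of whether the diet effect differed between germ-free and conventional mice gave 1.27 ± 0.47 for Ugt2b37 (adjusted p = 0.241) and 0.35 ± 0.12 for Ugt2b35 (adjusted p = 0.183), so a diet effect that differs with microbial status was not established for either. For Ugt2b37 that test passed without fish oil conventional mouse 6 (1.61, adjusted p = 0.0409).

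Of the 19 Gst genes, Gstp1 rose and Gstm5 fell on fish oil in germ-free mice, and the other 17 did not pass. The share that passed was 10.5%, beside 13.2% of all genes. Gstp1 encodes the main pi-class enzyme of mouse liver. It lay at 13.70, 13.78, 13.69, 13.89 and 13.70 in fish oil germ-free mice, against 12.84 to 13.26 (median 13.11) in lard germ-free mice. All fish oil mice stood above all lard mice, and the rise was 1.61-fold (0.69 ± 0.11, adjusted p = 0.000271). In conventional mice it lay between 13.34 and 14.11 (median 13.97) on fish oil, against 13.42 to 13.84 (median 13.62) on lard, and did not pass (0.20 ± 0.11, adjusted p = 0.366). As with Alb, these signals came close to the top of the scale, so a small difference there does not show equal levels.

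Gstp1 was also the Gst gene that differed with microbial status on lard. Lard germ-free mice, at 12.84 to 13.26, all lay below lard conventional mice, at 13.42 to 13.84, a 1.48-fold fall (-0.57 ± 0.11, adjusted p = 0.00549). On fish oil the difference between germ-free and conventional mice was -0.08 ± 0.11 (adjusted p = 0.768). Of the 4 group means the lard germ-free mean, 13.07, was the low one, against 13.64 to 13.83 in the other groups. Both calls of Gstp1 held in all 39 alternative settings. The difference between its diet effects was 0.49 ± 0.16 (adjusted p = 0.163), and passed without fish oil conventional mice 5 and 6 (0.62, adjusted p = 0.0344). The lard germ-free values enter both calls, so the calls are not independent of each other.

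Gstm5, of the mu class, lay at 7.80, 8.02, 7.72, 7.53 and 7.84 in fish oil germ-free mice, against 7.98 to 8.66 (median 8.52) in lard germ-free mice. It fell 1.55-fold (-0.63 ± 0.15, adjusted p = 0.00626), with 1 fish oil mouse above the lowest lard mouse, and this call held in all 39 settings. In conventional mice the difference was -0.22 ± 0.15 (adjusted p = 0.468). Other mu-class genes were lower on fish oil in germ-free mice without passing, with Gstm2 at -0.52 ± 0.20 (adjusted p = 0.0906) and Gstm3 at -0.47 ± 0.20 (adjusted p = 0.136), while Gstm1 (-0.02), Gstm4 (0.05), Gstm6 (0.09) and Gstm7 (0.15) lay near 0. Gstp3, also a pi-class gene, had values of the opposite sign to Gstp1, at -0.72 ± 0.24 in germ-free mice (adjusted p = 0.0523) and -0.69 ± 0.23 in conventional mice (adjusted p = 0.134). It lay between 8.03 and 8.62 in fish oil germ-free mice, against 8.46 to 9.39 in lard germ-free mice.

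Gsta4 and Gsto1 were higher in germ-free than in conventional mice on fish oil. Gsta4, an alpha-class enzyme that conjugates the lipid peroxidation product 4-hydroxynonenal, lay at 11.03, 11.20, 10.79, 10.87 and 11.07 in germ-free mice, against 9.58 to 10.95 (median 10.48) in conventional mice. The rise was 1.57-fold (0.65 ± 0.17, adjusted p = 0.0245). It rested on fish oil conventional mice 5 and 6, at 9.68 and 9.58: without them it was 0.29 (adjusted p = 0.0636), and leaving out conventional mouse 5 or germ-free mouse 1, 2 or 6 alone also ended the call (adjusted p between 0.0513 and 0.067), as did a fit of the 2 fish oil groups alone (adjusted p = 0.16). On lard Gsta4 was higher in every germ-free mouse (10.87 to 11.11) than in every conventional mouse (10.54 to 10.74), a difference of 0.37 ± 0.17 that did not pass (adjusted p = 0.346). In a fit of the 2 lard groups alone it passed (adjusted p = 0.00408).

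Gsto1, an omega-class enzyme that reduces dehydroascorbate, lay at 10.43, 10.49, 10.40, 10.46 and 10.38 in fish oil germ-free mice, against 9.72 to 10.52 (median 10.08) in fish oil conventional mice. It rose 1.29-fold (0.37 ± 0.10, adjusted p = 0.0205), with conventional mouse 1 above all germ-free mice, and the call was lost without germ-free mouse 2 (adjusted p = 0.0504) and in a fit of the 2 fish oil groups alone (adjusted p = 0.105). On lard it differed by -0.02 ± 0.09. The remaining 15 Gst genes passed in no comparison, with differences between -0.72 and 0.15 for the diet in germ-free mice and between -0.12 and 0.44 for microbial status on lard. Among them Gstt3, a theta-class gene, was the nearest in the comparison of status on fish oil (0.63 ± 0.21, adjusted p = 0.0774), and Gstz1, which isomerises maleylacetoacetate in tyrosine breakdown, stayed between 12.01 and 12.56 in all mice.

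**Figure D3:**
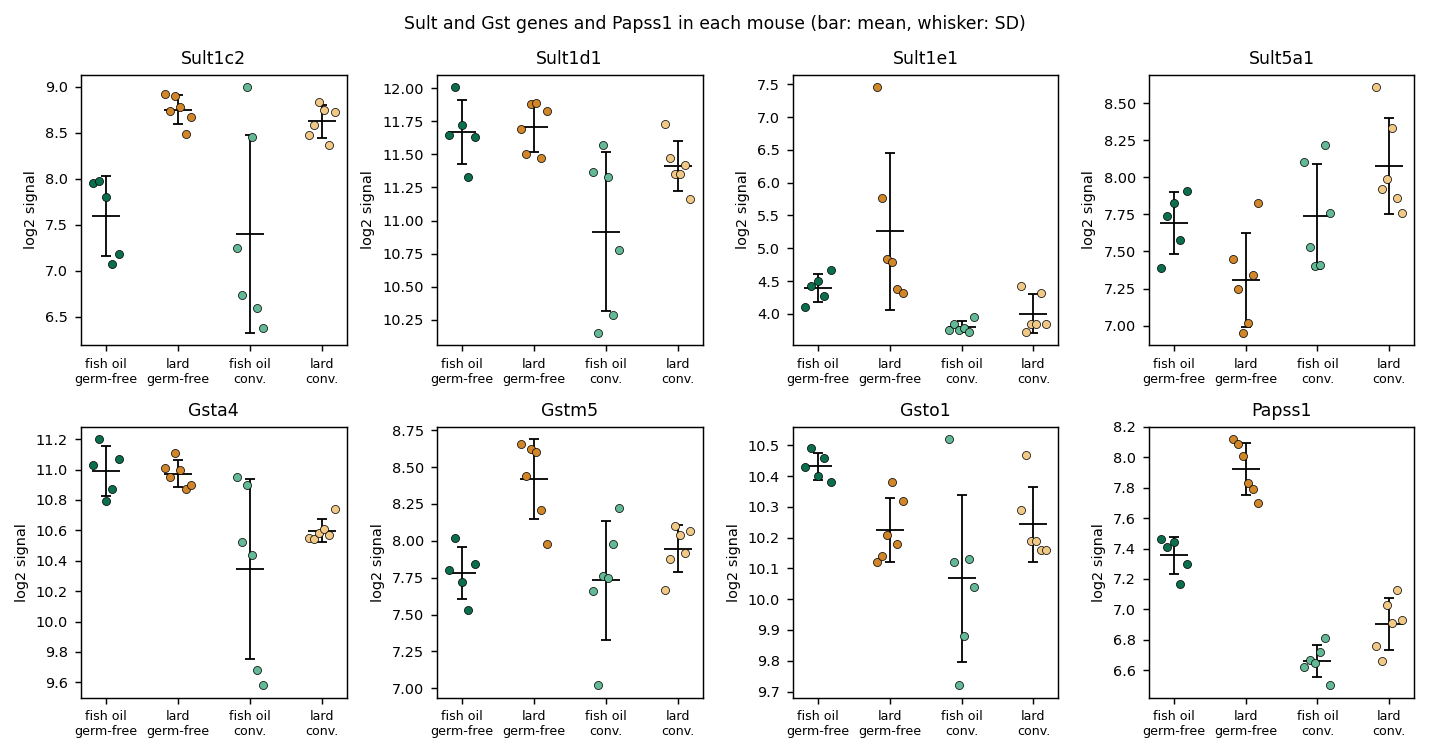
Log2 signal of 4 Sult genes, 3 Gst genes and Papss1 in each mouse (points), with the group mean (bar) and SD (whisker); each panel has its own axis. Sult1c2 in fish oil conventional mice spreads over 6.38 to 9.00, 1 lard germ-free mouse holds Sult1e1 at 7.46, and Papss1 separates germ-free from conventional mice on both diets.

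Of the 16 Sult genes 2 (12.5%) passed for diet in germ-free mice, beside 13.2% of all genes. Above the 25th percentile in at least 1 sample lay 9 of the 16, with Sult1e1 there only through lard germ-free mice. Of these 9, Sult1c2 had the largest differences with diet. Sult1c2 lay at 7.95, 7.97, 7.80, 7.07 and 7.18 in fish oil germ-free mice, against 8.49 to 8.92 (median 8.76) in lard germ-free mice. Every fish oil mouse lay below every lard mouse, and the fall was 2.23-fold (-1.16 ± 0.32, adjusted p = 0.0182). In conventional mice the difference was of like size, -1.22 ± 0.31, without passing (adjusted p = 0.0561). Fish oil conventional mice ran between 6.38 and 9.00 (median 6.99), against 8.37 to 8.83 (median 8.66) in lard conventional mice. The germ-free call was lost without fish oil germ-free mouse 5 (-1.03, adjusted p = 0.0591) or 6 (-1.05, adjusted p = 0.0557), and the conventional comparison passed without mouse 3 (-1.54, adjusted p = 0.00615) or 4 (-1.43, adjusted p = 0.00973) of fish oil conventional. The germ-free call was lost in 5 of 39 alternative settings. Without mice 5 and 6 of both germ-free groups the difference was -0.93 (adjusted p = 0.219).

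Low Sult1c2 values went with low values of a clock index, the signal of the circadian output gene Dbp minus that of the clock gene Arntl. The index was 2.49 and 3.66 in fish oil conventional mice 3 and 4, where Sult1c2 lay at 9.00 and 8.45. It lay between -2.04 and 0.05 in the other 4 mice, where Sult1c2 lay between 6.38 and 7.25. In lard conventional mice the index lay between 1.96 and 4.33, with Sult1c2 between 8.37 and 8.83. Among fish oil germ-free mice, numbers 5 and 6, with indices of 0.12 and -0.77, had the lowest Sult1c2 values (7.07 and 7.18), and the others, with indices of 3.24 to 4.09, lay at 7.80 to 7.97. The lard germ-free mice had indices of 3.60 to 4.59. Their Sult1c2 values lay between 8.49 and 8.92. With the index as a covariate in limma the germ-free difference was -0.61 (adjusted p = 0.157). The median index was lower on fish oil than on lard in conventional mice (-0.75 against 2.44) and in germ-free mice (3.24 against 4.26). Diet and index therefore went together in part, with index values that overlapped between the diets in conventional and in germ-free mice. The cause of the Sult1c2 difference was not tested. Gstp1 in fish oil conventional mice ran the other way, at 13.34 and 13.53 in mice 3 and 4 and at 13.94 to 14.11 in the other 4.

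**Figure D4:**
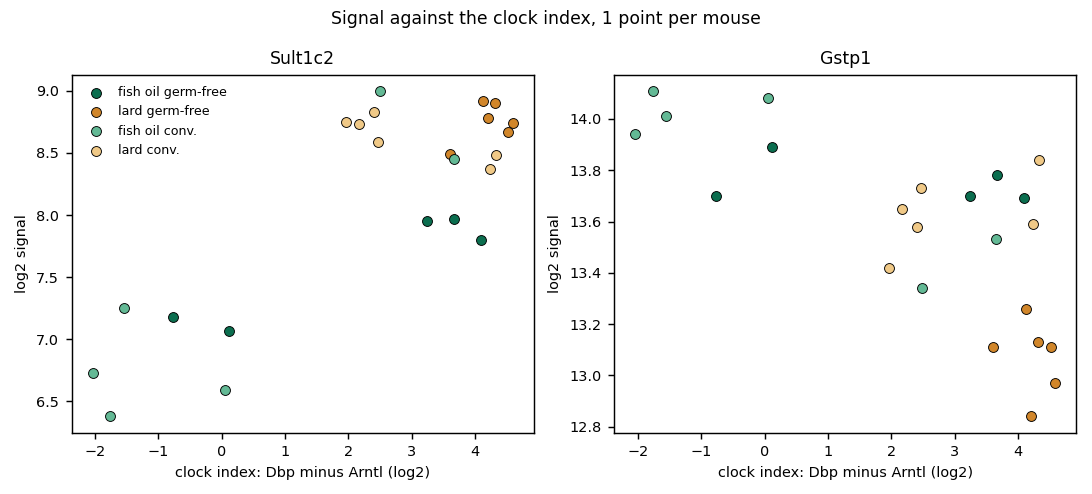
Log2 signal of Sult1c2 (left) and Gstp1 (right) against the clock index, the log2 signal of Dbp minus that of Arntl, with 1 point per mouse coloured by group. Sult1c2 lies between 6.38 and 7.25 in the 6 fish oil mice with an index of 0.12 or less and at 7.80 or more in all other mice.

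Sult1d1, which acts on catecholamines such as dopamine in the mouse, was higher in germ-free than in conventional mice on fish oil. It lay at 11.65, 12.01, 11.72, 11.33 and 11.63 in germ-free mice, against 10.15 to 11.57 (median 11.05) in conventional mice. The rise was 1.68-fold (0.75 ± 0.19, adjusted p = 0.0181), and was lost without germ-free mouse 2 (0.67, adjusted p = 0.0586), without conventional mice 5 and 6 (0.56, adjusted p = 0.0696), with the clock index as a covariate (0.53, adjusted p = 0.0749) and in a fit of the 2 fish oil groups alone (adjusted p = 0.115). On lard the difference was 0.30 ± 0.18 (adjusted p = 0.604). Its neighbour Sult1b1 gave 0.85 ± 0.27 on fish oil (adjusted p = 0.054), and Sult1a1, the phenol sulfotransferase, 0.46 ± 0.17 (adjusted p = 0.114).

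Sult5a1 fell in germ-free mice on lard, and Sult1e1 passed as higher there at a low signal. Sult5a1 lay between 6.95 and 7.83 (median 7.29) in lard germ-free mice, against 7.76 to 8.61 (median 7.95) in lard conventional mice. The fall was 1.71-fold (-0.77 ± 0.16, adjusted p = 0.012), with 1 germ-free mouse inside the conventional range, and held in all 39 settings. On fish oil it differed by -0.05 ± 0.17 (adjusted p = 0.922). The difference between its diet effects was 0.72 ± 0.24 (adjusted p = 0.167).

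Sult1e1, the estrogen sulfotransferase, lay between 4.32 and 7.46 (median 4.81) in lard germ-free mice, against 3.73 to 4.43 (median 3.84) in lard conventional mice. It passed (adjusted p = 0.0472), and lard germ-free mouse 1, at 7.46, stood far above the other 5, at 4.32 to 5.76. Without that mouse it still passed (adjusted p = 0.0239), while leaving out any of 14 other mice raised the adjusted p to between 0.0518 and 0.129. A fit of the 2 lard groups alone did not pass (adjusted p = 0.122). Every lard conventional signal lay below the 25th percentiles of the arrays (4.98 to 5.20), so no size of the difference is given. Only lard germ-free mice 1 and 2, at 7.46 and 5.76, lifted Sult1e1 above those percentiles, so it counts as measured only through the group in which it was high. In fish oil mice the germ-free values, 4.10 to 4.67, all lay above the conventional values, 3.72 to 3.95, without passing (adjusted p = 0.355), and all lay below those percentiles. In a fit of the 2 fish oil groups alone that difference passed (adjusted p = 0.00535).

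Sult2a8 did not pass, and Sult3a1 passed only at a low signal. Sult2a8, a sulfotransferase that acts on bile acids in the mouse and whose probe set had the highest mean signal of the family, lay at 12.14, 12.27, 12.13, 12.20 and 11.97 in fish oil germ-free mice, against 11.31 to 12.23 (median 11.69) in lard germ-free mice. The difference was 0.41 ± 0.15 (adjusted p = 0.0753), and passed without fish oil conventional mouse 3 (adjusted p = 0.038) or lard germ-free mouse 6 (0.51, adjusted p = 0.0192). Sult3a1 passed for diet in germ-free mice (-0.28 ± 0.09, adjusted p = 0.0492), but its signal, 3.12 to 3.94 over all mice, lay below every array's 25th percentile, and leaving out any of 18 mice ended the call (adjusted p between 0.051 and 0.139). The other 11 Sult genes passed in no comparison. Of them the 6 under the 25th percentile (Sult1c1, Sult2a3, Sult2a6, Sult3a2, Sult6b1 and Sult6b2) lay too low on the array for a change to be read.

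Fish oil conventional mice varied most among themselves. Their SD was the highest of the 4 groups for 31 of the 38 measured genes, with a median SD of 0.299, against 0.143 in lard conventional mice. In the germ-free groups the median SD was 0.116 on fish oil and 0.153 on lard. Fish oil conventional mouse 3 lay above the lard conventional range for 21 of the 38 genes, including all 10 Ugt genes. Mice 2, 5 and 6 lay below that range for 17, 21 and 22 of the 38, including 11, 10 and 13 of the 19 Gst genes. In fish oil germ-free mice 0 of the 10 Ugt genes lay below the lard germ-free range in any mouse, and between 5 and 8 of the 10 lay above it. Neither the SD values nor the counts outside the lard range were taken over all genes, so they do not set the families apart from other genes. Over the 300 most variable probe sets, the widest of the 60 pairs within a group was also in fish oil conventional mice (mice 3 and 5, SD of the difference 1.78).

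**Figure D5:**
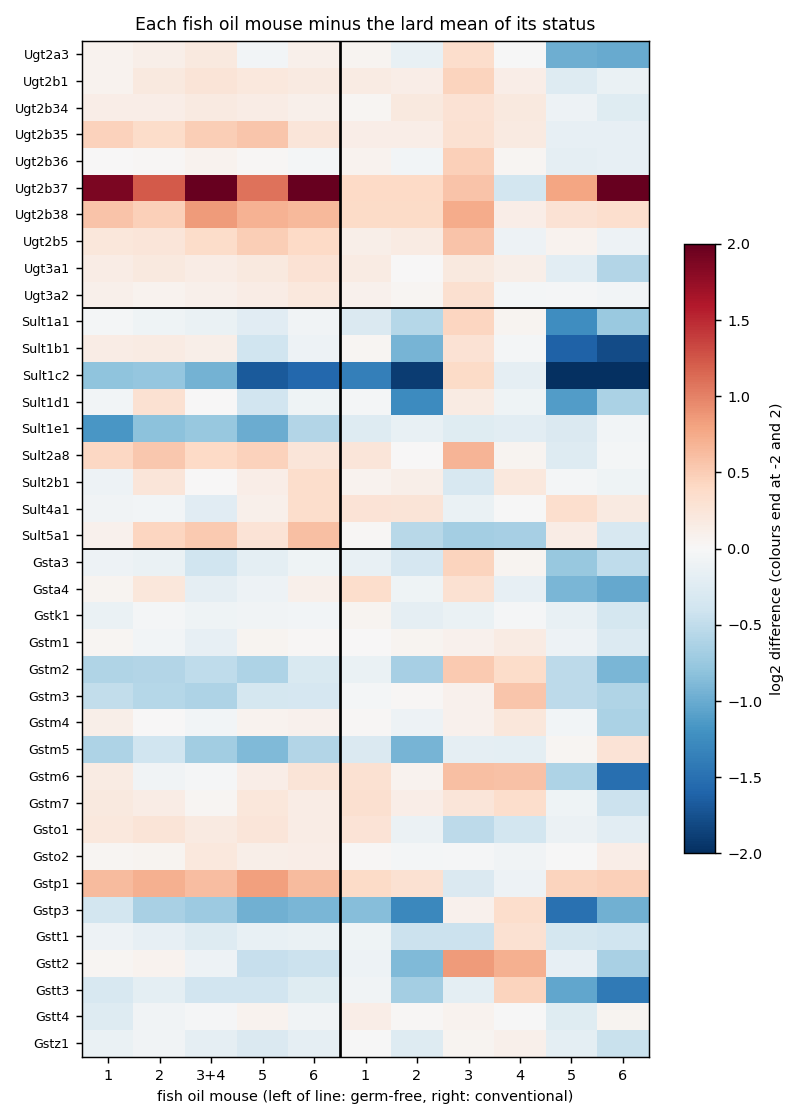
Log2 difference of each fish oil mouse from the lard mean of the same microbial status for the 38 measured genes, ordered by family; red is higher and blue lower on fish oil. Conventional mouse 3 (right of the line) is red for all 10 Ugt genes, conventional mice 2, 5 and 6 lie below the lard range for 17, 21 and 22 of the 38 genes, and Ugt2b37 is the reddest line in the germ-free samples. Such counts were not made over all genes.

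Genes that supply, move or control conjugation were taken from 6 lists. For scale, 8.59% of all genes were lower and 4.58% higher on fish oil in germ-free mice, and 0.602% were lower in conventional mice. In germ-free against conventional mice 3.01% of all genes were higher on fish oil and 1.13% on lard. For the difference between the diet effects 0.391% were lower. Of 10 genes of cofactor supply, Papss1, a synthase of the sulfonate donor PAPS, was higher in germ-free mice on both diets. It lay at 7.46, 7.41, 7.44, 7.17 and 7.30 in fish oil germ-free mice, against 6.50 to 6.81 in fish oil conventional mice, and rose 1.62-fold (0.70 ± 0.09, adjusted p = 3.60e-05). In lard germ-free mice it lay between 7.70 and 8.12, against 6.66 to 7.13 in lard conventional mice, and rose 2.03-fold (1.02 ± 0.08, adjusted p = 6.32e-08). Neither pair of groups overlapped. It was also lower on fish oil than on lard in germ-free mice (-0.57 ± 0.09, adjusted p = 0.00015), again without overlap. That call uses the same germ-free mice as the other 2. Papss2, the other PAPS synthase, passed in none (0.33 ± 0.16 and 0.47 ± 0.15 for microbial status on fish oil and on lard).

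Slc35d1, which carries the glucuronic acid donor into the endoplasmic reticulum, lay at 11.45, 11.29, 11.32, 11.33 and 11.19 in fish oil germ-free mice, above all lard germ-free mice (10.79 to 11.01) and all fish oil conventional mice (10.75 to 11.16). It rose in both comparisons (0.38 ± 0.07, adjusted p = 0.000593, and 0.35 ± 0.07, adjusted p = 0.0028). Of 6 efflux genes Abcc3, which exports glucuronides to the blood, rose in both comparisons too, at 12.59 to 12.82 in fish oil germ-free mice, against 12.10 to 12.36 in lard germ-free mice (0.40 ± 0.13, adjusted p = 0.037) and 11.46 to 12.39 in fish oil conventional mice (0.72 ± 0.13, adjusted p = 0.00127). They were the only genes of these lists, 1 of 10 and 1 of 6, that were higher for the diet in germ-free mice. For each gene the fish oil germ-free values enter both calls, so the calls are not independent of each other. Ugdh, which makes the donor, gave -0.03 ± 0.09 for the diet in germ-free mice.

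Of 13 measured regulators, Ahr, the receptor for dioxin-like ligands that controls several phase II genes, rose in germ-free mice on fish oil (1.05 ± 0.17, adjusted p = 0.000585) and on lard (0.73 ± 0.16, adjusted p = 0.0175). It lay at 10.04 to 10.77 in fish oil germ-free mice, against 8.75 to 9.89 in fish oil conventional mice, and at 10.05 to 10.76 in lard germ-free mice, against 9.37 to 10.01 in lard conventional mice, so neither pair overlapped. On fish oil in germ-free mice its partner Arnt (-0.26 ± 0.09, adjusted p = 0.0481) and the fatty acid receptor gene Ppara (-0.57 ± 0.16, adjusted p = 0.0166) fell, and in conventional mice Cebpa, a hepatocyte transcription factor gene, fell (-0.30 ± 0.07, adjusted p = 0.0496). Nfe2l2, the regulator of antioxidant genes, gave -0.39 ± 0.16 for the diet in germ-free mice (adjusted p = 0.117).

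Of 10 measured genes of other conjugating enzymes, As3mt, the arsenic methyltransferase gene, and Hnmt, the histamine methyltransferase gene, fell on fish oil in germ-free mice. As3mt lay between 8.36 and 9.13 on fish oil, against 10.27 to 10.87 on lard (-1.81 ± 0.23, adjusted p = 2.39e-05), and its diet effect differed between germ-free and conventional mice (-1.40 ± 0.32, adjusted p = 0.0445). Hnmt lay between 8.50 and 9.45 on fish oil, against 9.78 to 10.22 on lard (-1.10 ± 0.29, adjusted p = 0.0136). Of 3 measured genes that split conjugates in the cell, Gusb, the glucuronidase gene, fell on fish oil in germ-free mice (-0.55 ± 0.09, adjusted p = 0.000249), and Arsa, the arylsulfatase A gene, fell in germ-free (-0.59 ± 0.15, adjusted p = 0.0105) and conventional mice (-0.64 ± 0.14, adjusted p = 0.0391). Of 3 membrane glutathione transferase genes (Mgst1, Mgst2 and Mgst3) 0 passed in any comparison.

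Markers of other liver cells moved with the groups. Beside the counts that follow, 8.59% of all genes were lower and 4.58% higher on fish oil in germ-free mice. For germ-free against conventional mice 3.89% of all genes were lower on fish oil. On lard 0.687% were lower and 1.13% higher, and 0.391% were lower for the difference between the diet effects. Between fish oil and lard germ-free mice 5 of 6 stellate cell markers were lower, with a summed signal of 12.57 to 12.79 against 13.15 to 13.32, as were 4 of 6 cholangiocyte markers, with 9.35 to 9.54 against 9.55 to 9.79. Of the endothelial markers 2 of 6 were lower in the same comparison, and of the Kupffer cell markers 1 of 6 was higher. Between germ-free and conventional mice on fish oil 6 of 6 endothelial markers and 4 of 6 Kupffer cell markers were lower, with 12.21 to 12.35 against 12.26 to 13.23 and 11.56 to 12.08 against 12.25 to 13.15. In the same comparison 1 of 6 cholangiocyte markers was lower. On lard 3 of 6 Kupffer cell markers were lower, with 11.08 to 12.10 in germ-free and 12.16 to 12.72 in conventional mice, and 2 of 6 stellate cell and 1 of 6 cholangiocyte markers were higher. For the difference between the diet effects 2 of 6 cholangiocyte and 2 of 6 stellate cell markers passed, all with negative values. Neutrophil (5) and exocrine pancreas (3) markers passed in no comparison. Of the small intestine markers 1 of 4, Fabp2, was lower on fish oil in germ-free (-1.14 ± 0.29, adjusted p = 0.0101) and conventional mice (-1.34 ± 0.28, adjusted p = 0.0344), and the red blood cell marker Alas2 was lower in germ-free mice on lard (-0.43 ± 0.09, adjusted p = 0.0068). Hepatocyte markers did not pass in any of these comparisons, as given above. The part of the other cells in the values of the Ugt, Sult and Gst genes was not tested.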

How the data were processed

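Liver RNA was hybridised to 24 arrays, labelled as 1 per mouse, with 250 ng in each labelling reaction per the labels' protocols. The deposited values are log2 signals. Per the file headers, the authors summarised them by gene with RMA, which subtracts background, quantile-normalizes the arrays and applies median polish. The software was the apt engine 1.1.2800.28061 of Expression Console, with array library r4. Quantile normalization hides a change shared by most genes, and median polish can blend relatives that share probe sequence. For the genome build of the array, nothing was given in the sources used here.

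Of 35556 probe sets 21789 carried 1 gene symbol in the platform annotation, 1621 several and 12146 none. Each gene took its brightest probe set by mean signal, giving 19938 genes, and no filter on level was applied. All 45 genes described were matched to RefSeq by Entrez identifier, and 1 of them (Gstm3) had more than 1 probe set. The 45 genes and the lists of related genes and markers were chosen with earlier results of these data known.

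Differences were estimated in R 4.3.3 with lmFit and eBayes of limma 3.58.1, from the 4 group means and a spread shared by all groups, over 23 samples. Benjamini-Hochberg adjustment of the two-sided p-values covered all genes within a comparison, with 0.05 as the threshold. An error after ± is the SE for a log2 difference. The procedure was tested on simulated data. Arrays carry no read depth, so precision is limited by how many mice there were, and p-values measure the spread between these mice. Genes were named if they passed in any comparison or if they had the highest mean signal of their family. Neighbours just short of the threshold, the clock genes and the promoter motifs were chosen after the values were seen. Promoters came from RefSeq (GRCm38.p6), where 41 of the 45 genes had a window, and windows were compared by global alignment.

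Alternatives changed the genes entered (brighter genes, every probe set, probe sets averaged per gene), the scaling (array medians equalised, quantile normalization repeated, the other deposited table) and the model (trended and robust variance, array weights, the mouse number as a block, only the groups compared, the clock index as a covariate). Others changed the samples: 24 arrays entered separately, each mouse left out in turn, and mice 5 and 6 left out of fish oil conventional or of both germ-free groups. Leaving out mice 5 and 6 of all groups but lard conventional was added after the data were seen.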

Additional observations from a re-analysis of the deposited data

How the results depend on the processing

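With the values as deposited, 8 genes passed for diet in germ-free mice, 0 for diet in conventional mice, 5 for microbial status on fish oil, 3 for status on lard and 0 for the difference between the diet effects. None of the 16 called differences of Ugt, Sult and Gst genes changed sign under the alternatives run for it, which were 39, or 38 for Sult1e1 and Sult3a1. Genes of the related lists were not run under alternatives. The count for diet in conventional mice was 2 when array medians were equalised, 2 when only the brighter genes, those at or above the median, were tested, 1 after a second quantile normalization, 3 with array weights and 2 with 24 arrays as separate samples. The count for diet in germ-free mice was 14 with array weights, 14 on its own 2 groups and 5 with the clock index. The count for status on fish oil was 1 on its own 2 groups, where all 5 calls were lost and Sult1e1 was the gene that passed (adjusted p = 0.00535), 3 with the clock index, 3 without fish oil conventional mice 5 and 6, and 3 without mice 5 and 6 of all groups but lard conventional. Under these last 2 settings the count for status on lard was 5 each time, and the count for the difference between the diet effects was 2 without the fish oil conventional pair alone and 1 with the wider omission. The difference between the diet effects has no value on its own 2 groups. Leaving out 1 mouse at a time gave 5 to 12 for diet in germ-free mice (5 without fish oil mouse 5 or 6), 0 to 5 for diet in conventional mice (5 without fish oil mouse 4), 2 to 8 for status on fish oil (2 without germ-free mouse 2, 8 without conventional mouse 4), 2 to 4 for status on lard and 0 to 1 for the difference between the diet effects (1 without fish oil conventional mouse 1 or 6). The causes of these shifts were not tested.

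With the mouse number as a replicate block, 1 gene passed for diet in conventional mice (Sult1c2, adjusted p = 0.0359), 6 for diet in germ-free mice, 7 and 2 for status on fish oil and on lard, and 0 for the difference between the diet effects. Calls lost under the block were Ugt2b5 (adjusted p = 0.0726), Sult3a1 (0.0585) and Sult1e1 (0.0573). Mice with the same number did not deviate together throughout (correlations of -0.392 to 0.24), and the labels do not say that a number marks a litter, cage or day, so the mice share only a number.

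Equal array medians moved the median of all genes for diet in conventional mice to -0.077, against 0.013 as deposited. Signals below the 25th percentile of an array, as in 7 Sult genes, limit what can be read there.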

Other observations

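Probe sets that carry several family symbols gave values beside those of the 45 genes, in a fit of all probe sets. The 2 probe sets shared by Gstp1 and Gstp2 were higher on fish oil than on lard in germ-free mice, by 0.80 and 0.82 on the log2 scale (limma, adjusted p = 0.00254 and 0.0017), and lower in germ-free than in conventional mice on lard, by -0.79 and -0.81 (adjusted p = 0.00959 and 0.00615). These are the directions of the Gstp1 probe set. For diet in conventional mice the 2 shared probe sets gave 0.34 and 0.30, and for status on fish oil -0.34 and -0.29, without passing. The probe set shared by the Ugt1a genes, which include the bilirubin transferase gene Ugt1a1, lay between 11.53 and 11.64 in fish oil germ-free mice, against 10.98 to 11.39 in fish oil conventional mice, without overlap (0.35 ± 0.07, adjusted p = 0.00482). For diet it passed in neither germ-free nor conventional mice.

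The 4 probe sets shared by Gsta1, Gsta2 and 2 gene models passed in no comparison. The first of them lay between 10.14 and 10.67 in fish oil germ-free mice, against 7.73 to 10.20 in fish oil conventional mice. The second probe set of Gstm3 fell by 1.16 on the log2 scale for diet in germ-free mice without passing (adjusted p = 0.0508), against 0.47 for the one used, so the 2 probe sets of this gene differ in size. Bcl6, a repressor of sex-dependent liver genes, lay between 6.74 and 10.23 in lard germ-free mice, against 7.90 to 9.96 in lard conventional mice, and passed in no comparison.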
